A study of Mus musculus with 267 samples.

Results

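In macrophages treated with IL-4 for 24 h, the tags of STAT6, the transcription factor that IL-4 switches on, were compared between cells with Egr2 and cells in which Egr2 had been deleted. The members were the sites of 1 table, the positions where IL-4 had induced a peak of EGR2 within 24 h, and all 4677 of its 4677 sites were kept. The cells were bone marrow-derived macrophages (BMDMs), grown from mouse bone marrow for 7 days with the growth factor M-CSF. The series holds 267 samples, most of them from macrophages of 5 inbred strains. Of these, 4 STAT6 ChIP-seq libraries carry the comparison and 4 libraries of untreated (basal) cells give its context. All 8 came from cells homozygous for a floxed Egr2 allele. The Egr2flfl cells carried no Cre in their label and kept Egr2, and the LyzMCreEgr2flfl cells also carried a Cre recombinase driven by the myeloid LyzM promoter, which deletes Egr2 in the myeloid lineage. Each genotype was left basal or given 20 ng/mL mouse IL-4 for 24 h, with 2 libraries per group, and the study's methods name adult female mice as the source. The labels call the replicates biological without naming the mice, so p-values measure the spread between these libraries. With no Cre-carrying control in the table, Cre expression and loss of Egr2 cannot be told apart.

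IL-4 binds its receptor on the macrophage surface, Janus kinases phosphorylate STAT6, and STAT6 dimers enter the nucleus and bind the palindrome TTC-GAA with a short spacer. EGR2 is a zinc finger factor of the early growth response family. IL-4 induces it in macrophages, and EGR2 binds GC-rich GTGGGCG-like sequences. Macrophages treated with IL-4 take on the alternatively activated state, marked by genes such as Arg1 (arginase), Chil3 (the chitinase-like protein Ym1) and Cdh1 (E-cadherin).

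The sites were 300 bp windows, 2606 in introns and 2071 intergenic by the annotation of the table, and no window overlapped another. A level is the number of STAT6 tags in the window scaled to 10000000 tags in the library, called normalized tags here. Sequences of 8 windows are printed to show what the sites with large and small differences look like. They were read from the plus strand of mm10 and run from the base after the given start to the given end. Capitals mark the STAT6 motif (TTC, 4 N and GAA, with N as any base), which reads the same on both strands, and the EGR motif GTGGGNG on either strand (CNCCCAC on the printed one), and matches of the EGR motif may overlap each other. Of all 4677 windows, 21.2% held the STAT6 motif and 52.8% the EGR motif.

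The first 4 belong to the 12 sites with the most negative change, 12.03 kb downstream of the start of Cish (a SOCS family inhibitor of cytokine receptor signalling, intergenic, chr9:107307906-107308206), in an intron of Tex9 (chr9:72485485-72485785), 18.45 kb downstream of the start of Mmp12 (macrophage elastase, chr9:7362681-7362981, intergenic in the table but within the GENCODE span of Mmp12) and in an intron of Il31ra (a subunit of the IL-31 receptor, chr13:112551599-112551899).
Cish +12.03 kb: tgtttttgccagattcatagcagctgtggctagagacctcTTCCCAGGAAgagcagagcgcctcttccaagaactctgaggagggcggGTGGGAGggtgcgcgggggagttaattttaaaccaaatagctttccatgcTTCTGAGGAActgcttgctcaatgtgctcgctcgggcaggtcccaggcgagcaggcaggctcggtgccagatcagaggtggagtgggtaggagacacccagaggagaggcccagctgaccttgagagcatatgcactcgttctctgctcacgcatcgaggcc
Tex9 +6.58 kb: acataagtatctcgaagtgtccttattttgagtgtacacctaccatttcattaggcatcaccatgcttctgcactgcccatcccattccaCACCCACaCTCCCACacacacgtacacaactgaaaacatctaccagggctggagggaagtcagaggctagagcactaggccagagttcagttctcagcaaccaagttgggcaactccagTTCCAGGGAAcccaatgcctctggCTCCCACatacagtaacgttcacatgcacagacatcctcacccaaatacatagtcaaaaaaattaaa
Mmp12 +18.45 kb: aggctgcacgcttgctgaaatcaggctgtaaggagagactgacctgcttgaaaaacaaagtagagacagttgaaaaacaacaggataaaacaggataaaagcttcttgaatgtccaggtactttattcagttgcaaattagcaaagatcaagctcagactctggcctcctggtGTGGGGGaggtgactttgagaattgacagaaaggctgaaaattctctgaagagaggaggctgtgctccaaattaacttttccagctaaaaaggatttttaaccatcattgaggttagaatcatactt
Il31ra +42.6 kb: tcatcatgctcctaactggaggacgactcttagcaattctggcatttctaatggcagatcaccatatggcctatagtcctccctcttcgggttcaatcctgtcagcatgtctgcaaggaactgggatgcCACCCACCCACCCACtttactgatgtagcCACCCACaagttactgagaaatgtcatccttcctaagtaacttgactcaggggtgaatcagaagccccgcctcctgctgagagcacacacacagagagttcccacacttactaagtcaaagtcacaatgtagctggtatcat
The windows of Cish and Tex9 held both motifs, and those of Mmp12 and Il31ra held the EGR motif alone, in Il31ra as overlapping copies.

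The next 3 are the strongest STAT6 sites near 3 alternative activation genes, intergenic 13.9 kb upstream of Mmp12 (chr9:7330366-7330666), intergenic 2.88 kb upstream of Arg1 (chr10:24930217-24930517) and in an intron of Cdh1 (chr8:106612208-106612508).
Mmp12, 13.9 kb upstream: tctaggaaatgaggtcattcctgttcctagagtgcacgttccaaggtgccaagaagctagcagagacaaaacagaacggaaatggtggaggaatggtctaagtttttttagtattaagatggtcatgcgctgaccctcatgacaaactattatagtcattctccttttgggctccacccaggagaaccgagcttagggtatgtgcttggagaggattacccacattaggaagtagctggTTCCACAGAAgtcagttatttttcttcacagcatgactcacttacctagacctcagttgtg
Arg1, 2.88 kb upstream: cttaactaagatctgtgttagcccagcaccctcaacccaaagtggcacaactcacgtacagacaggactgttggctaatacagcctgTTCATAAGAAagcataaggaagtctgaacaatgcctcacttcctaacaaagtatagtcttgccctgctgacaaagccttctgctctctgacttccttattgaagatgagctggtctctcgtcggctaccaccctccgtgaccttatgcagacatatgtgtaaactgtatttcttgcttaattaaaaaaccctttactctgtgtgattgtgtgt
Cdh1 +9.01 kb: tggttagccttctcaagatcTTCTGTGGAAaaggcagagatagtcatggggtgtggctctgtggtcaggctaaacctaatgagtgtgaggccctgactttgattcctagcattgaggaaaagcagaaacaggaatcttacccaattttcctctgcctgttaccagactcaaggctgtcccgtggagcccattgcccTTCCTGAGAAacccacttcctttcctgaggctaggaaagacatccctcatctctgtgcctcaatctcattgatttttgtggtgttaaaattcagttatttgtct
Each of these held the STAT6 motif and none held the EGR motif. The last is the site with the most positive change, near Rassf4 (a Ras association domain protein, chr6:116682316-116682616, intergenic).
Rassf4, 8.51 kb upstream: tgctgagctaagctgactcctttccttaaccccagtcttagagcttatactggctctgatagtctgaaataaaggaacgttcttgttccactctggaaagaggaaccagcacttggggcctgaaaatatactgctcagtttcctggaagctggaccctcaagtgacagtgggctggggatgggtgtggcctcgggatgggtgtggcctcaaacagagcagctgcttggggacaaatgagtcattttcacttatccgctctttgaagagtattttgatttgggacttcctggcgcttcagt
The Rassf4 window held neither motif.

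At 24 h of IL-4 the STAT6 libraries held fewer tags in the EGR2 sites without Egr2. The 2 Egr2flfl libraries had 0.584% (95% exact Clopper-Pearson interval 0.579 to 0.589%) and 0.473% (0.469 to 0.477%) of their tags in the sites. The 2 LyzMCreEgr2flfl libraries had 0.370% (0.366 to 0.374%) and 0.242% (0.239 to 0.246%). Both libraries without Egr2 lay below both with it. The mean level was 11.3 ± 1.67 normalized tags per site in Egr2flfl (SD, n = 2) and 6.55 ± 1.93 in LyzMCreEgr2flfl (n = 2), which is 57.9% of the control. The exact two-sided permutation test over the 4 libraries gave p = 0.333, the smallest that 2 against 2 allows, so the design cannot reach 0.05. Fewer cells with STAT6 on a site and less STAT6 per cell cannot be told apart in such bulk libraries.

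In basal cells the genotypes overlapped. The Egr2flfl libraries had 0.257% and 0.168% of their tags in the sites and the LyzMCreEgr2flfl libraries 0.237% and 0.162%. Mean levels were 4.55 ± 1.35 and 4.27 ± 1.13 normalized tags (SD, n = 2 each), with p = 0.667 in the exact permutation test. In all 4 groups replicate 1 had the larger share. IL-4 thus went with a mean gain of 6.75 normalized tags per site in Egr2flfl and of 2.28 in LyzMCreEgr2flfl.

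**Figure D1:**
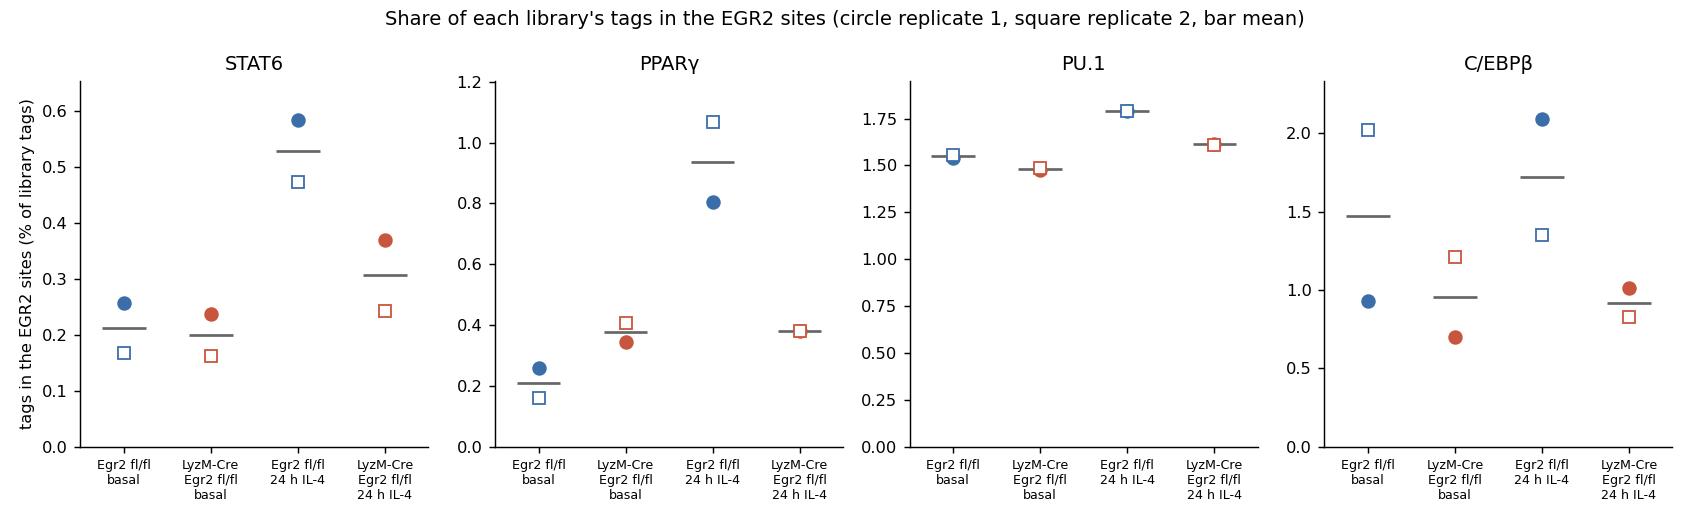
The share of each library's tags (%) that lay in the 4677 EGR2 sites is plotted for libraries of STAT6, of PU.1, of C/EBPβ and of PPARγ, with 1 point per library and a bar at the mean of 2. At 24 h the 2 STAT6 libraries without Egr2 (0.370% and 0.242%) sit below the 2 with it (0.584% and 0.473%), and the basal STAT6 libraries of the genotypes overlap.

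The difference was spread over most sites. The median log2 change at 24 h, LyzMCreEgr2flfl over Egr2flfl on log2(normalized tags + 1), was -0.79 over the 4677 sites, 86.98% of sites were negative, and the range from the 5th to the 95th percentile was -2.14 to 0.35. The median level was 7.89 normalized tags in Egr2flfl and 3.75 in LyzMCreEgr2flfl, and sites with at least 16 normalized tags numbered 1020 and 437. In basal cells the median change was -0.06 and the range -1.18 to 1.13.

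At 2384 sites (51.0% of all) both LyzMCreEgr2flfl libraries lay below both Egr2flfl libraries at 24 h, and at 97 sites (2.07%) both lay above. In basal cells they lay below at 732 sites and above at 514, together 26.6% of all. Lack of overlap is no test. Where 2 against 2 libraries do not differ by group, its probability at a site is 0.333 for both directions together. Among the 1034 sites with a mean of at least 16 normalized tags in either genotype, 615 (59.5%) lay apart and lower and 8 (0.774%) apart and higher. Of all sites, 1020 reached 16 in Egr2flfl and 437 in LyzMCreEgr2flfl, so this minimum itself favours lower sites. By a rule of size (at least 2-fold between group means with 1 added, at least 16 normalized tags in either group, no overlap of the libraries), 303 sites (6.48% of all) were lower and 0 (0%) higher. The same minimum is part of this rule, and without it 1466 sites were lower and 25 higher.

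Site by site, few differences passed the test with the replicate number left out. limma on the 8 STAT6 libraries, with Benjamini-Hochberg adjustment over 4677 sites, called 1 site lower (0.0214%) and 0 higher (0%) at 24 h, with 702 sites at an unadjusted p under 0.05. edgeR's quasi-likelihood test on the recovered whole reads called 20 sites lower (0.428%) and 0 higher. DESeq2 called 0, with 55 at an unadjusted p under 0.05. In basal cells limma called 0 sites in either direction (0%), with 115 at an unadjusted p under 0.05, and edgeR and DESeq2 also called 0 (106 and 31 at an unadjusted p under 0.05). The difference between the 24 h and the basal genotype change, tested as an interaction, had a median of -0.73 on the log2 scale and 0 calls by limma (0%), with 383 sites at an unadjusted p under 0.05 and a smallest adjusted p of 0.407. edgeR and DESeq2 called 0 for it as well (279 and 48 at an unadjusted p under 0.05). With the replicate number as a block, limma called 196 of the 4677 sites lower at 24 h and 16 lower in the interaction. Whether same-numbered libraries were paired is not known.

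The size of the general difference depended on the scaling. With libraries scaled by the median ratio of their reads over the sites, which sets the typical site to be equal between libraries, the median change at 24 h was -0.15 in place of -0.79, 58.95% of sites were negative and 0 sites were called. Under this scaling 29 sites met the rule of size, 15 lower and 14 higher. The table holds only EGR2 sites, so a change of STAT6 at all of them and a difference in how strongly the libraries were enriched cannot be told apart from it. Changes under the median-ratio scaling are therefore given below as changes relative to the typical site, meaning that of the 2654 sites with a tag in every library.

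**Figure D2:**
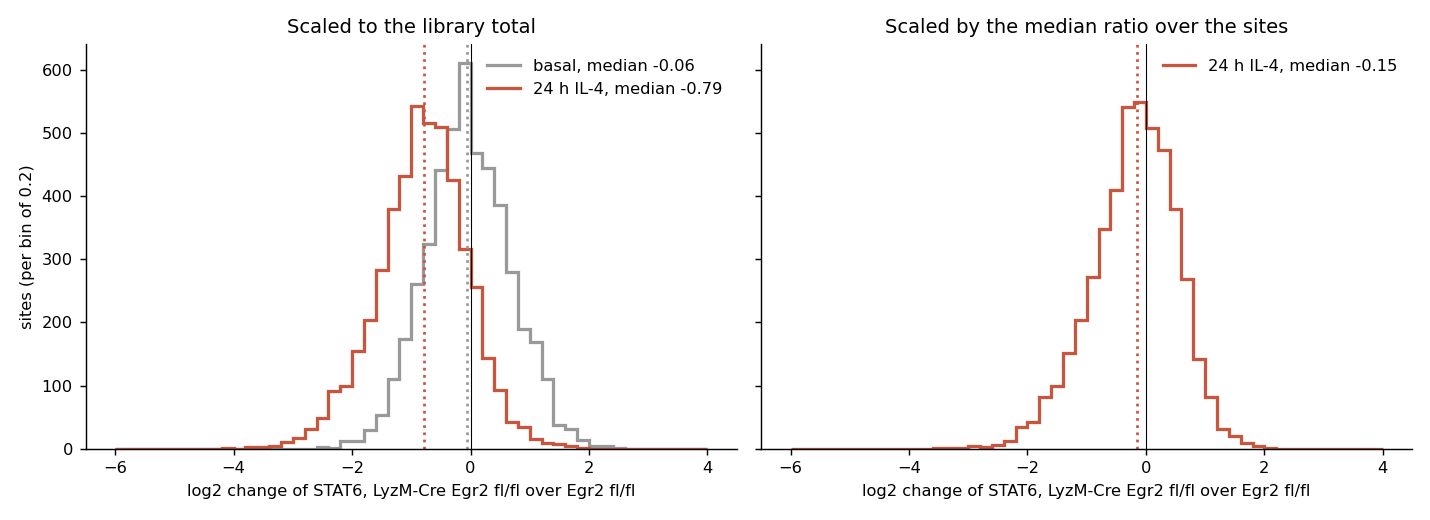
The number of sites per bin of 0.2 is plotted against the log2 change of STAT6, LyzMCreEgr2flfl over Egr2flfl, scaled to the library total (24 h and basal, left) and by the median ratio (24 h, right), with dotted lines at the medians. The 24 h curve is shifted to a median of -0.79 while the basal curve centres on -0.06, and median-ratio scaling moves the 24 h median to -0.15.

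The response of STAT6 to IL-4 was measured within each genotype. In Egr2flfl the median log2 change from basal to 24 h was 1.04, and limma called 552 sites higher (11.8%) and 0 lower. In LyzMCreEgr2flfl the median was 0.31, and 56 sites were called higher (1.20%) and 0 lower. A count in one genotype does not test the difference, and the interaction above is the test of it. The counts rest on single libraries: without Egr2flfl 24 h replicate 1, 24 h replicate 2 or basal replicate 2 the first count was 15, 79 or 99. Without LyzMCreEgr2flfl 24 h replicate 1, 24 h replicate 2 or basal replicate 2 the second was 1, 5 or 12.

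The sites differed by whether STAT6 peaks had been called on them in other mice. Peak lists from C57 BMDMs, which the comparison did not use, placed 1264 sites in both the basal and the 24 h STAT6 list, 1392 in the 24 h list but not the basal list, 70 in the basal list alone and 1951 in neither. Peaks at 1 h and 6 h did not define these classes. The 1392 sites included 34.2% of the 1789 sites in the 1 h list and 35.8% of the 1901 in the 6 h list. At the 1392 sites of the 24 h list but not the basal list, the mean level went from 11.5 normalized tags in Egr2flfl to 5.23 in LyzMCreEgr2flfl. The median log2 change was -1.07, and 66.8% of sites lay apart and lower. The mean level can be read in the same way for the other classes. At the 1264 sites with a peak in both lists the mean level went from 21.2 to 14.1, with a median of -0.63 and 47.9% apart and lower. At the 1951 sites in neither list it went from 4.79 to 2.59, with a median of -0.73 and 41.9%. Relative to the typical site, under the median-ratio scaling, these medians were -0.40, 0.10 and -0.19, so the direction at sites in both lists changed sign.

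How a library spread its own site tags over these classes does not depend on the library total. Sites of the 24 h list but not the basal list held 30.6% and 29.7% of the STAT6 site tags of the Egr2flfl 24 h libraries. They held 24.1% and 23.4% in the LyzMCreEgr2flfl 24 h libraries. In basal cells they held 21.8% and 21.9% with Egr2 and 20.9% and 22.1% without. The 24 h shares without Egr2 lay between the basal shares and the 24 h shares with Egr2, with no overlap at 24 h. Sites in both lists held 49.7% and 52.1% with Egr2 at 24 h and 57.8% and 58.7% without, the opposite direction, while their basal shares were 52.3% and 54.5% with Egr2 and 54.0% and 52.4% without. Sites in neither list held 18.4% and 16.8% with Egr2 at 24 h and 16.7% and 16.2% without. The shares of a library add up to the whole, so a fall in 1 class goes with a rise elsewhere. The mean level at sites in both lists was lower without Egr2, as given above. Each of these 24 h differences had p = 0.333 in the exact two-sided permutation test, the smallest possible.

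**Figure D3:**
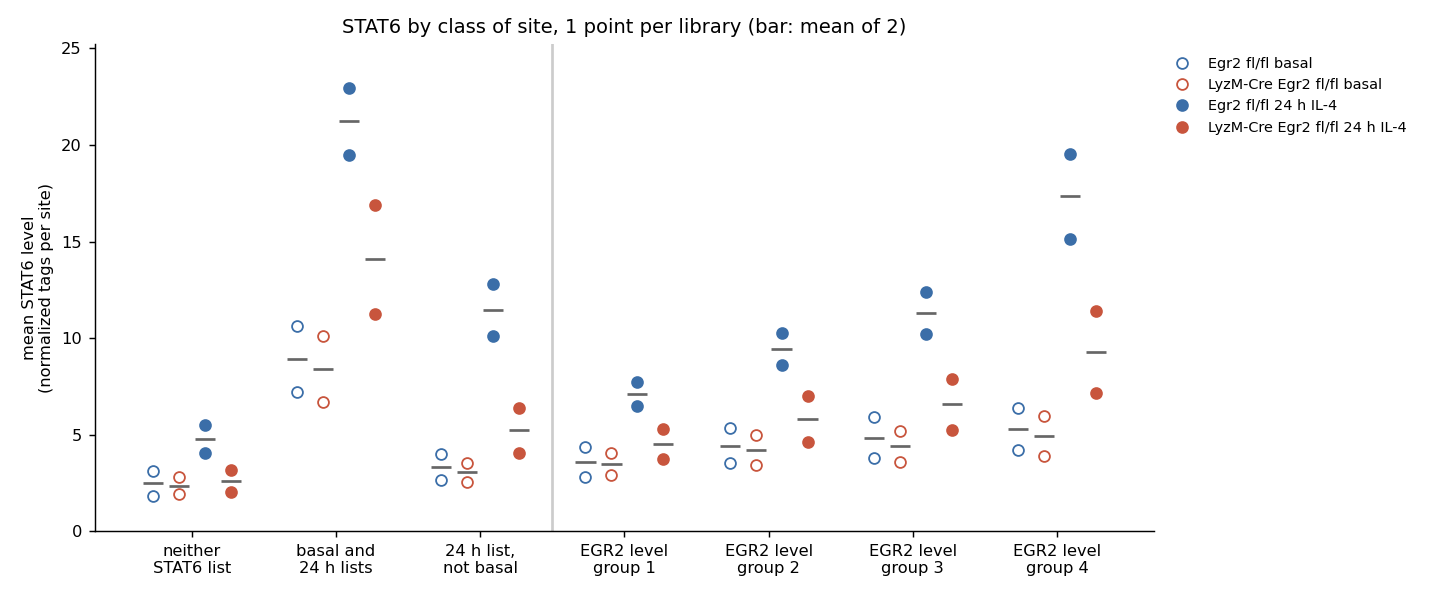
Mean STAT6 level (normalized tags per site) is plotted by C57 STAT6 peak list and by EGR2 level in 4 groups, 1 point per library and a bar at the mean of 2, open for basal and filled for 24 h IL-4. In every class shown the 2 filled points without Egr2 lie below the 2 with Egr2, and the means run from 7.10 with and 4.53 without Egr2 in the lowest EGR2 level group to 17.3 and 9.29 in the highest.

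The EGR2 level of a site was taken from 2 C57 libraries of 24 h IL-4, other mice than those compared, and the sites were ranked by it and divided into 4 groups of 1167 to 1172 sites. Levels ran from 15.02 to 22.2 normalized tags in the lowest group and from 41.8 to 332 in the highest. From the lowest to the highest group the median log2 change of STAT6 was -0.61, -0.71, -0.80 and -0.99, and 40.3%, 47.6%, 53.0% and 63.0% of sites lay apart and lower. Relative to the typical site the medians were -0.04, -0.08, -0.17 and -0.32. The Egr2flfl level of STAT6 was also higher at sites with more EGR2, 7.10 normalized tags in the lowest group and 17.3 in the highest, so its values there rest on more reads. Sites in the highest group held 39.1% and 37.5% of the site tags of the Egr2flfl 24 h libraries and 36.1% and 34.5% of those of the LyzMCreEgr2flfl 24 h libraries, without overlap. Across the 4677 sites, which share libraries and are no replicates, the STAT6 change and the log2 EGR2 level had a Pearson r of -0.23.

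The motifs of the windows divided the sites less. The 448 sites with both the STAT6 and the EGR motif had a median log2 change of -0.95, the 542 with the STAT6 motif alone -0.77, the 2021 with the EGR motif alone -0.81 and the 1666 with neither -0.74. Shares apart and lower were 59.2%, 55.0%, 48.9% and 49.9%. Relative to the typical site the medians were -0.26, -0.05, -0.24 and -0.07. Sites with the EGR motif alone held 28.03% and 27.7% of the site tags at 24 h with Egr2 and 25.9% and 25.8% without. Sites with the STAT6 motif alone held 21.3% and 20.7% with Egr2 and 22.5% and 21.5% without. Intron and intergenic sites had medians of -0.78 and -0.80.

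**Figure D4:**
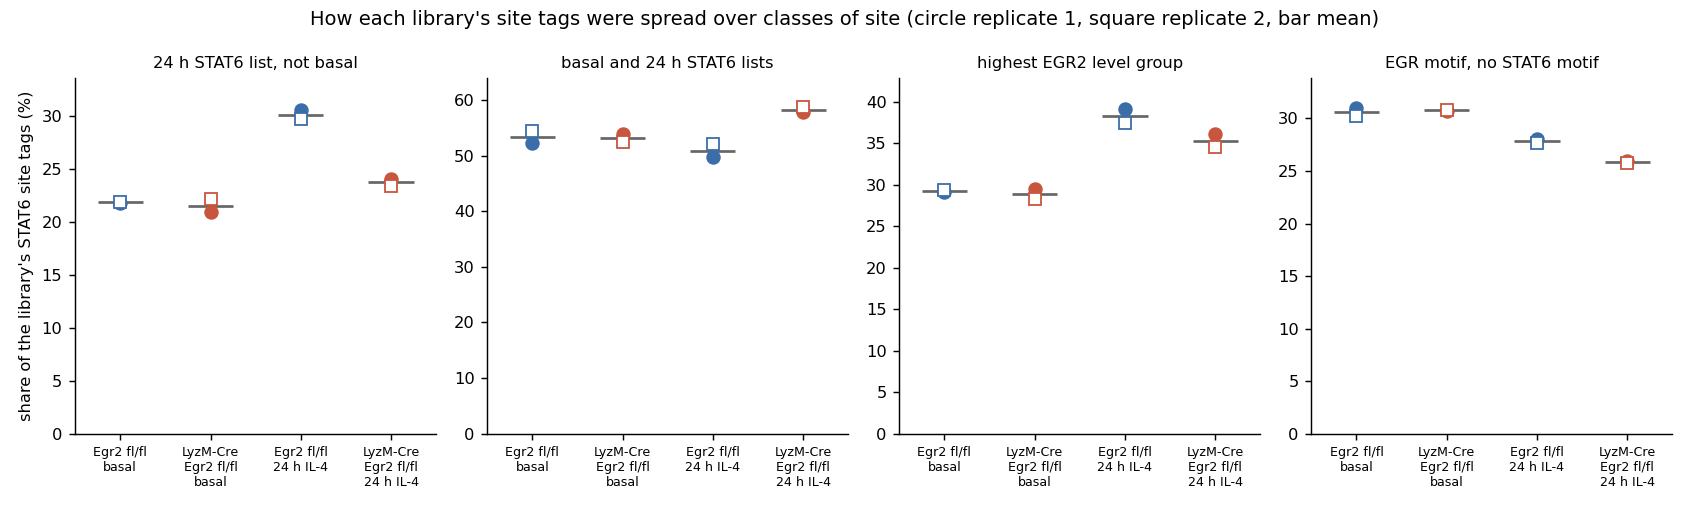
The share (%) of each library's own STAT6 site tags that fell in 4 classes of site is plotted for the 8 libraries, with a bar at the mean of 2. At 24 h the shares of sites in the 24 h but not the basal list are 30.6% and 29.7% with Egr2 and 24.1% and 23.4% without. The shares of sites in both lists are 49.7% and 52.1% with Egr2 and 57.8% and 58.7% without.

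The sites with the largest decreases were named by rank among those with at least 16 normalized tags in either genotype and libraries that did not overlap. The 1 site called by limma lay 14.3 kb upstream of BC017158, in intergenic sequence (chr7:128312336-128312636). The Egr2flfl libraries had 16.2 and 17.7 normalized tags at 24 h and both LyzMCreEgr2flfl libraries had 0. Against a floor of 3 reads per library it was at least 5.23-fold lower, and limma gave an adjusted p of 0.0397 and edgeR 0.00186. The call depended on the processing. With 24 h libraries only limma gave this site an adjusted p of 0.109, and with median-ratio scaling 0.701. DESeq2 did not call it. Without single 24 h libraries its log2 change was -4.22 to -4.10. H3K27ac, a histone mark of active enhancers, was 29.2 and 21.2 normalized tags (in 1000 bp) with Egr2 and 27.01 and 20.9 without at this site.

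The strongest of the 12 in control cells were the sites of Tex9 and Cish printed above. At Tex9 the Egr2flfl libraries had 80.9 and 55.8 normalized tags at 24 h and the LyzMCreEgr2flfl libraries 9.28 and 6.76, against 1.03 to 2.23 in all 4 basal libraries. The log2 change was -2.93 ± 0.65 (SE), with an adjusted p of 0.0925 by limma and of 0.00186 by edgeR. At 24 h the libraries without Egr2 lay between the basal libraries and those with Egr2.

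At Cish the Egr2flfl libraries had 92.1 and 43.4 normalized tags at 24 h, and the LyzMCreEgr2flfl libraries 24.7 and 0. The log2 change was -3.66 ± 0.89 (SE), with an adjusted p of 0.110 by limma and 0.0225 by edgeR. The 2 libraries without Egr2 differed widely, and without LyzMCreEgr2flfl replicate 2 the log2 change was -1.32. EGR2 in C57 cells was 302 and 362 normalized tags here, the highest level of any site. Of the other Cish sites, the one at +10.2 kb had 14.9 and 7.97 normalized tags with Egr2 and 7.22 and 2.25 without, and the one at +17.03 kb had 27.4 and 14.2 with Egr2 and 16.5 and 6.76 without, with overlap.

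An intron of Anks1, with Taf11 (a subunit of the general factor TFIID) as the gene named for it, held the next (chr17:27968002-27968302). STAT6 there was 61.0 and 30.98 normalized tags with Egr2 and 4.12 and 3.38 without. The log2 change was -3.23 ± 0.78 (SE), with an adjusted p of 0.105 by limma and 0.00186 by edgeR. H3K27ac at this site was 117 and 93.1 normalized tags with Egr2 and 7.27 and 11.03 without, so that the mark and STAT6 were both low in the cells without Egr2.

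The Il31ra intron had 42.3 and 23.9 normalized tags with Egr2 and 8.25 and 0 without, a log2 change of -3.43 that was -1.83 without LyzMCreEgr2flfl replicate 2. The Mmp12 site at +18.45 kb had 29.9 and 7.97 with Egr2 and 1.03 and 0 without, a log2 change of -3.55. Mmp12 held 5 sites in all, of which 3 lay apart and lower, as 51.0% of all sites did. The others of the 12, near Sema4b (a transmembrane semaphorin), Ranbp9 (a Ran-binding scaffold), Zfp608 (a zinc finger protein), Trim36 (a ubiquitin ligase), Armc4 (a protein of cilia) and Gm10097 (the window is in an intron of Syne1, a nuclear envelope protein), had log2 changes from -3.65 to -2.86. edgeR called 11 of the 12 (all sites: 0.428%), with Zfp608 as the exception at an adjusted p of 0.0575. Since the 12 were chosen by their change in the same libraries, this count is no separate support.

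Of the 12 sites, 10 were in the C57 STAT6 list of 24 h and 0 in the basal list. Of the 623 sites they were ranked among, 605 and 405 were. The EGR motif was in 9 windows and the STAT6 motif in 6, against 191 and 236 of the ranked sites. Their median EGR2 level in C57 cells was 75.2 normalized tags, against 41.2 over the ranked sites. The median log2 change of H3K27ac was -2.27, and 12 of 12 were negative, against a median of -0.19 over the ranked sites. In basal cells their STAT6 level did not exceed 3.70 normalized tags in the Egr2flfl mean and 4.88 in the LyzMCreEgr2flfl mean. The ranking favours sites with a low level at 24 h without Egr2, so low basal levels and absence from the basal list may partly follow from it.

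edgeR called 9 further sites lower, which are named here because of that call. They lay near Nt5dc3, Lclat1 (an acyltransferase of cardiolipin), Il1r1 (the IL-1 receptor), Zeb2 (a zinc finger repressor), Pkp2 (a desmosome protein), Batf (an AP-1 family factor), Kif26b (a kinesin), 1700020N01Rik and Prkcb (protein kinase C beta). Both LyzMCreEgr2flfl libraries were at 0 at Nt5dc3, Lclat1 and Zeb2, which makes them at least 4.86-, 3.32- and 3.01-fold lower. At Batf, intergenic 12.6 kb upstream (chr12:85673950-85674250), STAT6 was 21.2 and 23.02 normalized tags with Egr2 and 4.12 and 1.13 without (log2 change -2.80, edgeR adjusted p = 0.0434). At Prkcb, in an intron (chr7:122322332-122322632), it was 23.7 and 34.5 with Egr2 and 4.12 and 4.51 without (log2 change -2.48, edgeR adjusted p = 0.0338).

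**Figure D5:**
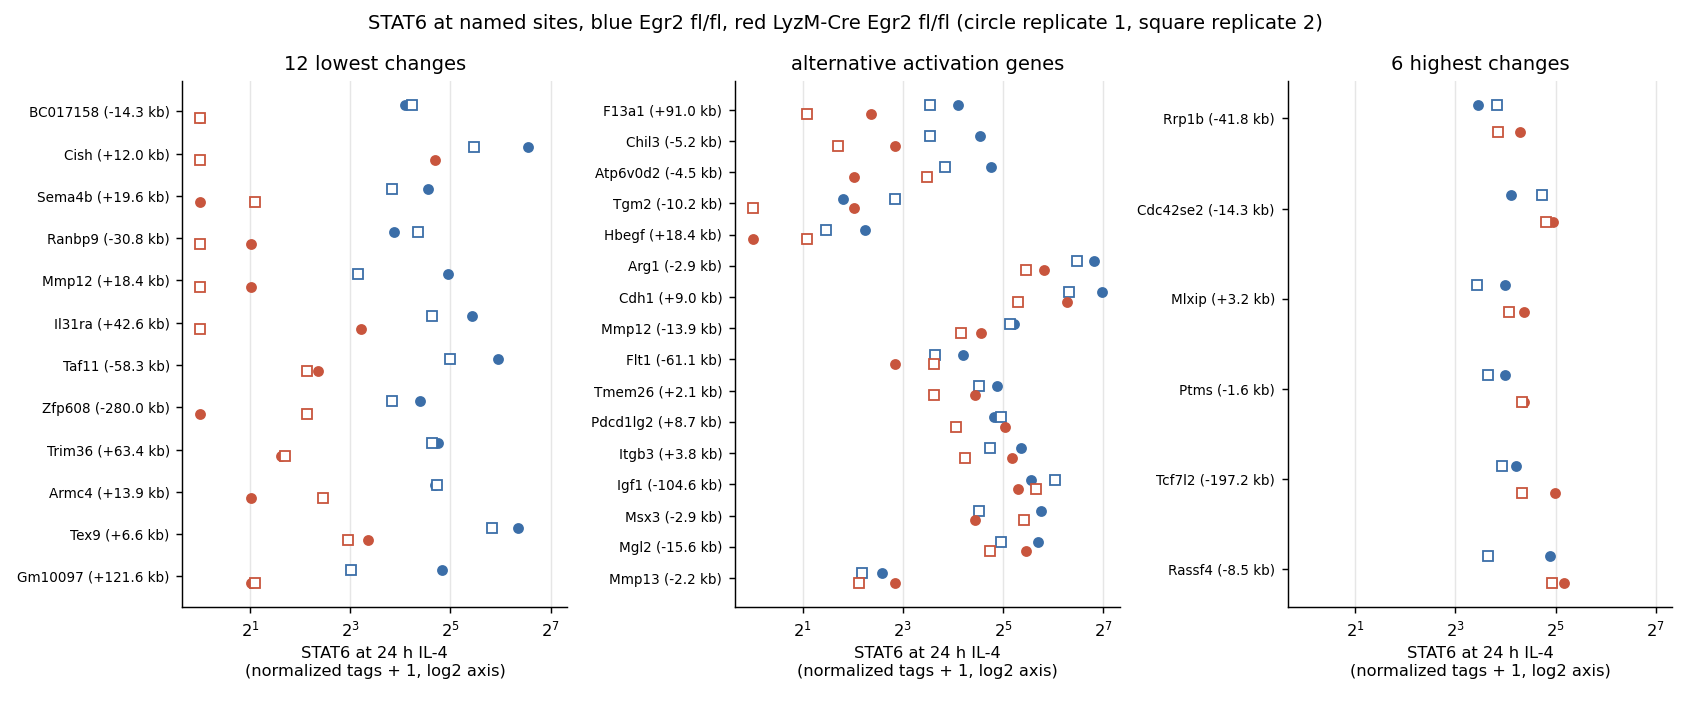
STAT6 at 24 h of IL-4 (normalized tags + 1, on a log2 axis) is plotted per library for the 12 most negative sites, the strongest site of each of 16 alternative activation genes and the 6 most positive sites, with Egr2flfl in blue and LyzMCreEgr2flfl in red. The red points lie to the left of the blue ones at the 12 sites by selection, and the alternative activation genes range from F13a1 (-2.10) to Mmp13 (0.11).

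Genes of alternative activation, the receptor pathway and other classes were taken from lists. Of 35 alternative activation genes 16 had a site, 43 sites in all. Of these 43, 24 lay apart and lower (55.8%, against 51.0% of all sites) and 0 apart and higher, 5 were at least 2-fold lower by the rule of size (all sites: 6.48%), limma called 0 and edgeR 1. The median log2 change was -0.92 against -0.79 over all sites, and the medians relative to the typical site were -0.21 and -0.15. Shares of this list near those of all sites are no result about the list.

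Arg1 had one of the highest STAT6 levels. At 2.88 kb upstream the Egr2flfl libraries had 112 and 87.6 normalized tags at 24 h and the LyzMCreEgr2flfl libraries 55.7 and 42.8, against 10.1 to 18.9 in the 4 basal libraries. STAT6 was lower without Egr2 in both libraries but still above every basal library. The log2 change was -1.01 ± 0.51 (SE), with an adjusted p of 0.339 by limma, and -0.24 relative to the typical site. H3K27ac there was 348 and 369 normalized tags with Egr2 and 422 and 373 without. Both other Arg1 sites also lay apart and lower, as 51.0% of all sites did.

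The Cdh1 intron had 126 and 78.8 normalized tags with Egr2 at 24 h and 76.3 and 38.3 without. The libraries did not overlap, by a small margin, and the log2 change was -0.87 ± 0.54 (SE; limma adjusted p = 0.411), -0.38 without LyzMCreEgr2flfl replicate 2. The IL-4 response was called in both genotypes at this site (log2 change 2.75 in Egr2flfl and 2.04 in LyzMCreEgr2flfl, limma adjusted p = 0.00123 and 0.0461). The strongest Mmp12 site, 13.9 kb upstream, had 36.1 and 34.5 with Egr2 and 22.7 and 16.9 without (log2 change -0.82, limma adjusted p = 0.469).

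Lower in both libraries were also F13a1 (the A subunit of coagulation factor XIII, log2 change -2.10), Chil3 (-1.77), Atp6v0d2 (a subunit of the vacuolar proton pump, -1.54), Hbegf (a growth factor, -1.31), Flt1 (a VEGF receptor, -0.69) and Tmem26 (-0.69). Hbegf had only 3 and 2 reads with Egr2 and 0 and 1 without, too few to show a difference. At Chil3, 5.17 kb upstream, STAT6 was 22.4 and 10.6 normalized tags with Egr2 and 6.19 and 2.25 without (limma adjusted p = 0.266). The genotypes overlapped at Tgm2 (a transglutaminase), Pdcd1lg2 (PD-L2), Itgb3 (integrin beta 3), Igf1 (a growth factor), Msx3, Mgl2 (a C-type lectin) and Mmp13 (a collagenase), with log2 changes from -1.31 at Tgm2 to 0.11 at Mmp13. Both ends rest on few reads, 2 and 7 with Egr2 and 3 and 0 without at Tgm2. At Mmp13 they were 4 and 4 with Egr2 and 6 and 3 without. At Mgl2, 15.6 kb upstream, STAT6 was 51.0 and 30.1 with Egr2 and 43.3 and 25.9 without, and the response to IL-4 was called in both genotypes (log2 change 3.21 and 2.40, limma adjusted p = 0.000695 and 0.0297). Flt1, Tmem26, Pdcd1lg2, Itgb3, Igf1, Msx3 and Mgl2 turned positive under the median-ratio scaling.

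Of 27 genes of the IL-4 receptor and JAK-STAT list 13 had 30 sites, 16 of them apart and lower (53.3%, against 51.0% of all sites) and 0 higher. Their median was -0.69 on the log2 scale, against -0.79 over all sites, and turned to 0.04 under the median-ratio scaling. At Il4ra (the receptor's alpha chain), in an intron, STAT6 was 21.2 and 18.6 normalized tags with Egr2 and 11.3 and 6.76 without (log2 change -1.09 ± 0.64 SE, limma adjusted p = 0.392). At Jak2 (a receptor-bound kinase), 12.1 kb upstream, it was 66.0 and 35.4 with Egr2 and 36.1 and 24.8 without, with overlap. At Irs2 (an adaptor of the IL-4 and insulin receptors) the log2 change was -0.22. Jak2 and Irs2 turned positive under the median-ratio scaling.

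Of 24 genes of PPARγ (a nuclear receptor of lipid metabolism) and lipid handling 13 had 25 sites, 11 of them apart and lower (44.0%, below the 51.0% of all sites) and 0 higher. Their median was -0.86 on the log2 scale, against -0.79 over all sites. At Abcg1 (a cholesterol exporter), in an intron, STAT6 was 36.1 and 31.9 normalized tags with Egr2 and 15.5 and 16.9 without (log2 change -1.02 ± 0.69 SE, limma adjusted p = 0.448). Lpl (lipoprotein lipase) had a log2 change of -0.86. Values overlapped at Ppargc1b (a coactivator of nuclear receptors, -0.02) and Pparg (0.17). Cd36 (a scavenger receptor), named after its values were seen, had 22.4 and 17.7 with Egr2 and 4.12 and 3.38 without in an intron (log2 change -2.14 ± 0.66 SE, limma adjusted p = 0.174).

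Among 28 transcription factor genes 22 had 65 sites, 37 apart and lower (56.9%, against 51.0% of all sites) and 2 higher (all sites: 2.07%), with a median log2 change of -0.72. The strongest, near Klf4 (-0.95) and Runx1 (-0.05), overlapped between the genotypes. Of 36 inflammatory genes 16 had 27 sites, 18 apart and lower (66.7%, against 51.0% of all sites) and 0 higher, with a median log2 change of -0.82 against -0.79 over all sites. No test was made of these shares. Ccl2 (a monocyte chemokine) had 59.8 and 40.7 normalized tags with Egr2 and 37.1 and 21.4 without (log2 change -0.79 ± 0.53 SE, limma adjusted p = 0.455), and Tnfaip3 (the NF-kB inhibitor A20) had a log2 change of -0.56. Macrophage lineage genes had 10 sites with a median of -0.44 (0.31 under the median-ratio scaling), among them Csf1r (the M-CSF receptor, -0.16) and Ccr1 (a chemokine receptor, -0.36). Genes of other cell types had 3 sites, near Kit, Mpo and Ngp, with a median STAT6 level of 5.50 normalized tags in Egr2flfl and 3.80 in LyzMCreEgr2flfl at 24 h.

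At the other end, 6 sites with at least 16 normalized tags and no overlap were highest in log2 change. At Rassf4 the Egr2flfl libraries had 28.6 and 11.5 normalized tags at 24 h and the LyzMCreEgr2flfl libraries 35.1 and 29.3, a log2 change of 0.78 ± 0.57 (SE; limma adjusted p = 0.484). The next were Tcf7l2 (a factor of the Wnt pathway, 0.60), Ptms (parathymosin, 0.53), Mlxip (a glucose-sensing transcription factor, 0.51), Cdc42se2 (an effector of Cdc42, 0.46) and Rrp1b (a nucleolar protein, 0.43), and none passed the test (limma adjusted p from 0.484 to 0.712). All 6 were in both the basal and the 24 h C57 list, 0 held the EGR motif, 3 held the STAT6 motif, and their median EGR2 level was 25.9 normalized tags. The median log2 change of H3K27ac at the 6 was 0.23.

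The highest STAT6 levels over all 8 libraries were at sites near Sfi1, Cd300lb (an immunoglobulin-like receptor), Cdh1, Tmem144 and Ier3 (an immediate early gene). At Sfi1, 87.9 kb from the gene start, STAT6 was 131 and 112 normalized tags with Egr2 at 24 h and 106 and 89.0 without, and 53.2 to 112 in the basal libraries, so it was high without IL-4 too. At Ier3, 11.96 kb upstream, it was 108 and 77.9 with Egr2 at 24 h and 104 and 46.2 without, with overlap, and 4.59 to 9.28 in the basal libraries. At Ier3 the response to IL-4 was called in both genotypes (log2 change 3.24 and 3.43, limma adjusted p = 0.000259 and 0.000507). Sfi1, Tmem144 and Ier3 turned positive relative to the typical site (0.45, 0.35 and 0.37), and Cd300lb and Cdh1 stayed at -0.24 and -0.10.

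The genotype itself could not be read from these libraries. The table holds 1 site in Egr2, in an intron (chr10:67539066-67539366), with 4 and 3 STAT6 reads in the Egr2flfl 24 h libraries and 5 and 5 in the LyzMCreEgr2flfl ones. The sources used here do not say whether this window lies in the deleted part, and counts this low check nothing in either case.

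Other factors at the same sites were measured in libraries of the same genotypes. PPARγ went from a mean of 20.0 ± 3.98 normalized tags to 8.14 ± 0.00535 (SD, n = 2 each) at 24 h, with a median log2 change of -1.28. These SDs are of library means, and many sites had no PPARγ tag. At 24 h such sites numbered 939 and 1026 in the Egr2flfl libraries and 1637 and 3084 in the LyzMCreEgr2flfl libraries. C/EBPβ, a bZIP factor of myeloid cells, went from 36.8 ± 11.2 to 19.6 ± 2.78, with a median of -1.14. PU.1, the factor that sets macrophage identity, went from 38.3 ± 0.0261 to 34.5 ± 0.0421, with a median of -0.33. For all 3 the libraries did not overlap at 24 h and the exact permutation p was 0.333, the smallest possible. In basal cells the mean of PPARγ was 4.47 ± 1.53 normalized tags with Egr2 and 8.03 ± 0.986 without, the opposite order (exact permutation p = 0.333 on the share of tags, n = 2 each), with a median log2 change of 0.0 over the sites. Basal replicate 2 of PPARγ had no tag at 3124 sites with Egr2 and at 3090 without, so this median rests largely on empty sites. Basal C/EBPβ was 31.6 ± 16.5 with Egr2 and 20.5 ± 7.76 without, 64.9% of the control and with overlap, and its median log2 change was already -0.53. Basal PU.1 was 33.1 ± 0.236 and 31.7 ± 0.104, 95.7% of the control. The STAT6 change minus that of PPARγ, PU.1 and C/EBPβ had medians of 0.52, -0.42 and 0.35 on the log2 scale, and limma called 0 sites in each, with 203, 262 and 197 sites at an unadjusted p under 0.05. PU.1 and C/EBPβ chromatin was fixed with formaldehyde alone and that of STAT6 and PPARγ also with the crosslinker DSG.

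H3K27ac, in a window of 1000 bp, had a median log2 change of -0.50 at 24 h over the sites. It was -0.79 at sites in the 24 h but not the basal STAT6 list, -0.08 at sites in both lists and -0.72 at sites in neither. At the 303 sites at least 2-fold lower in STAT6 it was -0.49. Across sites, as a description, the STAT6 change had a Pearson r of 0.31 with the H3K27ac change, 0.18 with that of PPARγ, 0.31 with that of PU.1 and 0.28 with that of C/EBPβ. At Tex9, H3K27ac was 111 and 86.1 normalized tags with Egr2 at 24 h and 11.4 and 13.9 without, and PU.1 was 113 and 106 with Egr2 and 22.3 and 17.7 without. At Cdh1, PU.1 was 201 and 189 with Egr2 and 160 and 173 without.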

How the data were processed

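ChIP-seq tags of STAT6, PPARγ, PU.1 and C/EBPβ were analysed at the EGR2 sites that 24 h of IL-4 induced. Per the labels, reads were mapped with Bowtie2 to mm10 and counted with HOMER. The deposited signal is a tag count per 300 bp window that the authors scaled to 10000000 tags per library (H3K27ac in 1000 bp). All of the 149664 values (100%) were whole reads within 0.1 read. STAT6 libraries held 8032408 to 11296393 tags, and intervals and floors cover counting error only. 4 value columns that matched no sample were not used.

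limma 3.58.1 (R 4.3.3, trend) was fitted on log2(normalized tags + 1) to the 8 STAT6 libraries as genotype by IL-4 means, with Benjamini-Hochberg adjustment over all sites at 0.05. edgeR 4.0.16 and DESeq2 1.42.0 on recovered reads, other scalings, filters of 8 and 16 normalized tags, a pseudocount of 5, 24 h libraries only, the replicate number as a block and leaving out each library were alternatives. EGR2 and H3K27ac levels came from other deposited signal tables. The deposited peak lists, which the authors kept where replicates agreed (IDR), carry a score that ranked peaks for a stricter list. bedtools 2.31.1 (overlap of 1 bp), Python 3.11.15 and RefSeq GRCm38.p6 with GENCODE vM21 gave overlaps, sequences and genes. The fits were also run on simulated reads in which libraries differed in total but not in enrichment at the sites. That check therefore does not cover differences in enrichment such as those between these replicates.

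The text names the 12 most negative and 6 most positive changes among sites with at least 16 normalized tags and no overlap, the strongest site of each alternative activation gene, up to 4 of each other list, the 5 highest sites, sites in or within 10 kb of Egr2, and the strongest near Mmp12. The members and lists were chosen with earlier results of these data known. 1 gene of the alternative activation list is not reported here.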

Additional observations from a re-analysis of the deposited data

Results flagged for a closer look

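At some named sites both LyzMCreEgr2flfl libraries lay on one side of both Egr2flfl libraries at 24 h of IL-4 and on the other side in basal cells. Over all sites this was so at 279 (5.97%), of which 263 were lower at 24 h and higher in basal cells and 16 the reverse. Lack of overlap at a single site is no test of the difference, and the interaction fitted by limma called 0 sites, with 383 at an unadjusted p under 0.05. Where the values are small they rest on few reads.

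The log2 change, LyzMCreEgr2flfl over Egr2flfl, was -4.16 at 24 h and 0.42 in basal cells near BC017158. It was -3.34 and 1.03 near Zeb2, -3.05 and 1.11 near Zfp608, -2.93 and 0.52 in Tex9, and -2.56 and 1.28 near Kif26b. It was -2.10 and 1.46 in F13a1, -0.82 and 0.64 at the Mmp12 site 13.9 kb upstream, and -0.69 and 0.39 near Flt1. Near Cdc42se2 the order was the other way, with 0.46 at 24 h and -1.0 in basal cells. None of these differences passed the interaction test (limma adjusted p from 0.407 to 0.756).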

How the results depend on the processing

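The count of sites lower at 24 h (1 by limma) was 144 with a pseudocount of 5, 20 by edgeR and 3 by edgeR with TMM. It was 0 with filters of 8 or 16 normalized tags (fewer sites tested), with median-ratio scaling, with 24 h libraries only and by DESeq2. It was 0 to 2 without single 24 h libraries and 0 to 4 without single basal libraries (4 without LyzMCreEgr2flfl basal replicate 1, 2 without LyzMCreEgr2flfl 24 h replicate 1). The median log2 change of -0.79 was -0.46 with a pseudocount of 5, -0.15 with median-ratio scaling, -0.15 by DESeq2 and -0.13 with TMM, and -1.0 to -0.51 without single libraries. The 303 sites of the rule of size became 169 at 2.5-fold, 58 at 4-fold, 1491 with no minimum level, 195 with a pseudocount of 5 and 29 with median-ratio scaling. Without single libraries they numbered 246 to 578, with 578 without Egr2flfl 24 h replicate 2 and 571 without LyzMCreEgr2flfl 24 h replicate 1. The cause of these shifts was not tested.

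The 552 sites called for IL-4 in Egr2flfl were 929 with a pseudocount of 5, 355 and 181 with the filters of 8 and 16, 51 with median-ratio scaling, 14 by DESeq2, 81 with TMM and 15 to 561 without single Egr2flfl libraries (15 and 79 without 24 h replicates 1 and 2, 99 without basal replicate 2), against 531 to 596 without single LyzMCreEgr2flfl libraries. The 56 in LyzMCreEgr2flfl were 20 by DESeq2 and 1 to 41 without single LyzMCreEgr2flfl libraries (1 and 5 without 24 h replicates 1 and 2, 12 without basal replicate 2), against 8 to 45 without single Egr2flfl libraries (8 without either 24 h library). The difference of the STAT6 and the C/EBPβ change gave 1 site with a pseudocount of 5, and that of the STAT6 and the PU.1 change 0 to 6 without single libraries (6 without LyzMCreEgr2flfl 24 h replicate 1). With 1 library left in a group, that library is assumed to vary like the other groups. The share of a library's site tags per class was added after seeing the data.

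The labels name no common mouse or day for same-numbered libraries of the 4 groups, so whether they were paired is not known. Replicate 1 had the larger share of tags in the sites in all 4 groups, a common shift that a correlation over sites leaves out. Beyond it, the deviations of same-numbered libraries correlated at 0.097 to 0.152 over sites, not above 0.1 for every pair. With the replicate number as a block, 196 sites were called lower at 24 h, 16 in the interaction, 1243 for IL-4 in Egr2flfl and 289 in LyzMCreEgr2flfl.

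Of 62 named sites, 20 changed sign under at least 1 alternative and 0 passed the threshold under median-ratio scaling. The log2 change under median-ratio scaling, DESeq2 and TMM was 0.03, 0.13 and 0.09 near Flt1, 0.05, 0.07 and 0.10 near Tmem26, 0.08, 0.05 and 0.08 near Jak2, 0.18, 0.16 and 0.15 near Tnfaip3, 0.44, 0.45 and 0.43 near Igf1, 0.45, 0.46 and 0.47 near Sfi1, 0.51, 0.53 and 0.52 near Irs2, and 0.59, 0.65 and 0.63 near Csf1r, and with TMM 0.00 near Ccl2. With the range without single libraries in addition, it was 0.35, 0.32 and 0.37 (-0.99 to 0.16) near Tmem144, 0.37, 0.41 and 0.44 (-0.98 to 0.18) near Ier3, 0.38, 0.42 and 0.44 (-1.04 to 0.31) near Ccr1, 0.40, 0.44 and 0.46 (-0.83 to 0.15) near Pdcd1lg2, 0.41, 0.45 and 0.48 (-0.80 to 0.13) near Itgb3, 0.53, 0.64 and 0.62 (-0.84 to 0.39) near Msx3, 0.53, 0.54 and 0.56 (-0.59 to 0.15) near Mgl2, 0.69, 0.75 and 0.77 (-0.54 to 0.44) near Runx1 and 0.70, 0.76 and 0.78 (-0.38 to 0.33) near Ppargc1b. edgeR on reads gave 0.04 near Runx1 and 0.02 near Ppargc1b. Without single libraries alone the sign changed near Mmp13 (-0.25 to 0.46) and Pparg (-0.23 to 0.57). The filters left out the low named sites, which then have no value.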
